A study of Homo sapiens with 17 samples.

Results

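The step from 6 h to 12 h with TRAIL was examined across all genes in MDA-MB-231 cells. Its members are 6 of the 17 libraries of the series: the 3 labelled as 12 h and the 3 labelled as 6 h, taken from the columns of the deposited count table that carry those labels. MDA-MB-231 is an established human line of triple-negative breast cancer, and the labels place it in the mesenchymal basal B class. For none of the 17 libraries do the labels name an engineered allele. The cells were grown in RPMI with serum, given TRAIL at 45 nM, a dose that the labels call suboptimal, and collected after 0, 1, 3, 6, 12 or 24 h. There were 3 libraries per time, and 2 at 1 h. The 0 h libraries carry the treatment label of the others, and no library of a later time is labelled untreated. Hours with TRAIL and hours in culture therefore cannot be told apart in any comparison given here. The labels do not say whether replicates were separate cultures, so p-values measure only the spread between these libraries, which may be technical.

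TRAIL is a ligand of the TNF family. It binds the death receptors TNFRSF10A and TNFRSF10B, from which a complex with FADD and caspase-8 can start apoptosis, and the same receptors can activate kinases that free the transcription factor NF-κB. In cells that survive, NF-κB raises cytokines, survival genes and its own inhibitors, and those inhibitors and RNA-decay proteins normally return the system towards rest, so that early target genes often form a wave that rises and declines. The title of the series names NFKB2, cytokines, the chemotaxis of neutrophils and suppression of immunity. The question here is which genes of that early response had declined between 6 h and 12 h, and what else moved.

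The 6 libraries held 14423215 to 19234924 counts each. Replicates 2 and 3 of 6 h lay closer to each other (chi-square statistic of 1.57 per gene, where 1 would be sampling noise) than the other replicate pairs at 6 h and 12 h (5.99 to 11.6). They were kept as separate libraries, and counts of called genes are also given with them averaged as 1. Mitochondrial genes took 3.97% to 5.45% of counts at 6 h and 5.01% to 6.80% at 12 h, with replicate 1 the highest at both times. Markers of the mesenchymal basal B class were present, with 9 of 10 at 1 CPM (counts scaled to the library total) or more in all 6 libraries, and their summed level was 10290 to 10440 CPM at 6 h and 9244 to 9691 CPM at 12 h. Leukocyte markers summed to 77.1 to 78.9 CPM at 6 h and 74.9 to 78.7 at 12 h, of which CD68 and CSF1R were the only 2 of 15 at 1 CPM or more throughout, and the T cell, B cell and neutrophil genes CD3E, MS4A1, S100A8, S100A9 and CSF3R were at 0 in every one of the 6. Of 14 luminal epithelial markers, 7 were at 1 CPM or more in all 6 libraries, PGR and FOXA1 were at 0, and the sum was 1938 to 2066 CPM at 6 h and 1990 to 2334 at 12 h.

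Between 6 h and 12 h the transcriptome moved in many small steps. Of 15365 genes tested, 3168 (20.6%) were called, meaning an adjusted p below 0.05 in the quasi-likelihood F-test of edgeR. Of these, 1831 (11.9%) were lower at 12 h and 1337 (8.70%) were higher. A difference of at least 2-fold was found for 44 of the lower genes (0.286% of those tested) and 108 of the higher genes (0.703%). Most calls were small: 2605 of the 3168 lay below 1.5-fold, and the median size was 0.33 on the log2 scale for lower genes and 0.40 for higher genes. Many of the strong changes were in weakly expressed genes: 19 of the 108 and 14 of the 44 had an average log2 CPM of at least 2. With the 6 h replicates 2 and 3 averaged (and those of 24 h likewise), 1013 genes were lower and 666 higher. Leaving out the 6 h replicate 2 gave 1088 lower and 756 higher genes. Leaving out the 6 h replicate 3 gave 1087 and 711. With the 12 h replicate 1 omitted, 823 were higher. The split also moved with scaling, from 42.2% of calls higher with TMM scaling to 57.1% with library size alone and 66.4% with upper-quartile scaling, under which the median of all genes was 0.067 and not -0.0057.

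Among called genes whose average log2 CPM reached 2 and whose groups did not overlap, the 12 lowest included AP-1 genes, a trefoil peptide gene, complement genes, a phosphatase gene, a noncoding RNA and a signalling adaptor gene. Scarcer genes with larger fitted values exist in both directions and are not ranked here. FOSB, a subunit of the AP-1 transcription factor (ENSG00000125740, chromosome 19, 45467995 to 45475179 on GRCh38), stood at 12.1, 8.36 and 10.3 CPM at 6 h and at 2.19, 2.21 and 1.33 CPM at 12 h. The log2 fold change of 12 h minus 6 h was -2.43 (SE 0.215, adjusted p = 3.8e-07, edgeR). That every 6 h library was above every 12 h library was a condition for being named here. FOS, its close relative (ENSG00000170345, chromosome 14, 75278774 to 75282230), stood at 51.7, 38.6 and 39.0 CPM at 6 h and at 14.7, 15.9 and 13.7 CPM at 12 h. FOS was thus 2.91-fold lower at 12 h (log2 fold change -1.54, SE 0.134, edgeR adjusted p = 5.1e-07). DUSP1, which encodes a phosphatase that switches off MAP kinases, stood at 62.2, 57.1 and 59.4 CPM at 6 h and at 22.6, 22.5 and 20.7 CPM at 12 h, a fall that was large against the spread of either group (log2 fold change -1.44, SE 0.067, edgeR adjusted p = 2.3e-11).

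C3, the central complement component (ENSG00000125730, chromosome 19, 6677704 to 6730562), stood at 30.1, 34.8 and 31.5 CPM at 6 h and at 8.57, 6.42 and 10.7 CPM at 12 h. At 0 h it was at 28.7, 33.3 and 34.2 CPM, the same range as at 6 h, so the decline of C3 came after 6 h (log2 fold change -1.91, SE 0.129, edgeR adjusted p = 9.1e-09). It then did not pass the test between 12 h and 24 h, where it stood at 7.03, 7.99 and 8.54 CPM. The complement genes C4B (-1.33) and C4A (-1.03) were also called lower, but they are near-identical copies whose counts were not whole in any of the 17 libraries, so that their shares are uncertain. TFF1, a secreted trefoil peptide, went from 8.21, 8.09 and 7.07 CPM to 2.26, 1.81 and 2.11 CPM (log2 fold change -1.92, SE 0.148, edgeR adjusted p = 5.2e-08).

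Also among the 12 lowest were TRAF1 (-1.33) and PMEPA1 (-1.11), described with their groups, and AMIGO2 (-1.03), a cell adhesion protein, which went from 83.3, 93.3 and 92.8 CPM to 43.4, 45.9 and 42.5 CPM. The long noncoding RNA AC245041.1 fell by 1.38 and SRCAP, a chromatin remodelling ATPase, by 1.02. SRCAP counts were not whole in any library, and its call was lost when the 6 h replicate 3 (-0.88, edgeR adjusted p = 0.078) or the first of 12 h (-0.88, 0.067) was omitted.

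By the same limits on level and overlap, the highest rise was that of NR1D1, a nuclear receptor that represses transcription in the circadian clock (ENSG00000126368, chromosome 17, 40092787 to 40100725). It stood at 6.57, 5.77 and 5.34 CPM at 6 h and at 24.9, 21.0 and 22.2 CPM at 12 h, a 3.85-fold rise (log2 fold change 1.94, SE 0.129, edgeR adjusted p = 6.4e-09). NR1D1 overlaps THRA and its counts were not whole in any library, so its level is uncertain. PPFIBP2, a liprin that organises membrane scaffolds, rose from 1.26, 1.26 and 1.35 CPM to 4.59, 4.92 and 5.22 CPM (1.92, SE 0.178, edgeR adjusted p = 5.1e-07). TEF, a clock-controlled transcription factor, rose from 4.23, 4.44 and 4.42 CPM to 10.5, 11.6 and 10.8 CPM (1.33, SE 0.113, edgeR adjusted p = 2.1e-07). The rule asked for groups without overlap, and for NR1D1, PPFIBP2 and TEF the gaps were wide. All were called lower at 6 h than at 0 h, NR1D1 by 1.42, PPFIBP2 by 2.28 and TEF by 1.51. At 12 h against 0 h, PPFIBP2 (-0.36) and TEF (-0.19) were not called, while NR1D1 was higher (0.53, edgeR adjusted p = 0.0055).

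Also among the 12 highest were LGALS12 (1.31), SHROOM2 (1.25), the phospholipase LIPH (1.17), the acetyl-CoA synthetase ACSS1 (1.11) and METTL7A (1.10). Each of them had been called lower at 6 h than at 0 h. At 12 h against 0 h, LGALS12 (-0.046), ACSS1 (0.18) and METTL7A (0.26) were not called. SHROOM2 (0.42, edgeR adjusted p = 0.0499) and LIPH (0.55, 0.013) were then higher. The rest were the noncoding or poorly separable entries FABP5P7 (1.34), AC034102.2 (1.21), ADIRF-AS1 (1.19) and AC125494.1 (1.16), whose counts were not whole in 16 or 17 libraries. The AC034102.2 call was lost without any of 5 libraries: the 6 h replicate 1 (1.31, edgeR adjusted p = 0.075), the 6 h replicate 2 (0.86, 0.12), and the 12 h replicates 1 (1.25, 0.088), 2 (0.97, 0.15) and 3 (1.37, 0.051).

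**Figure D1:**
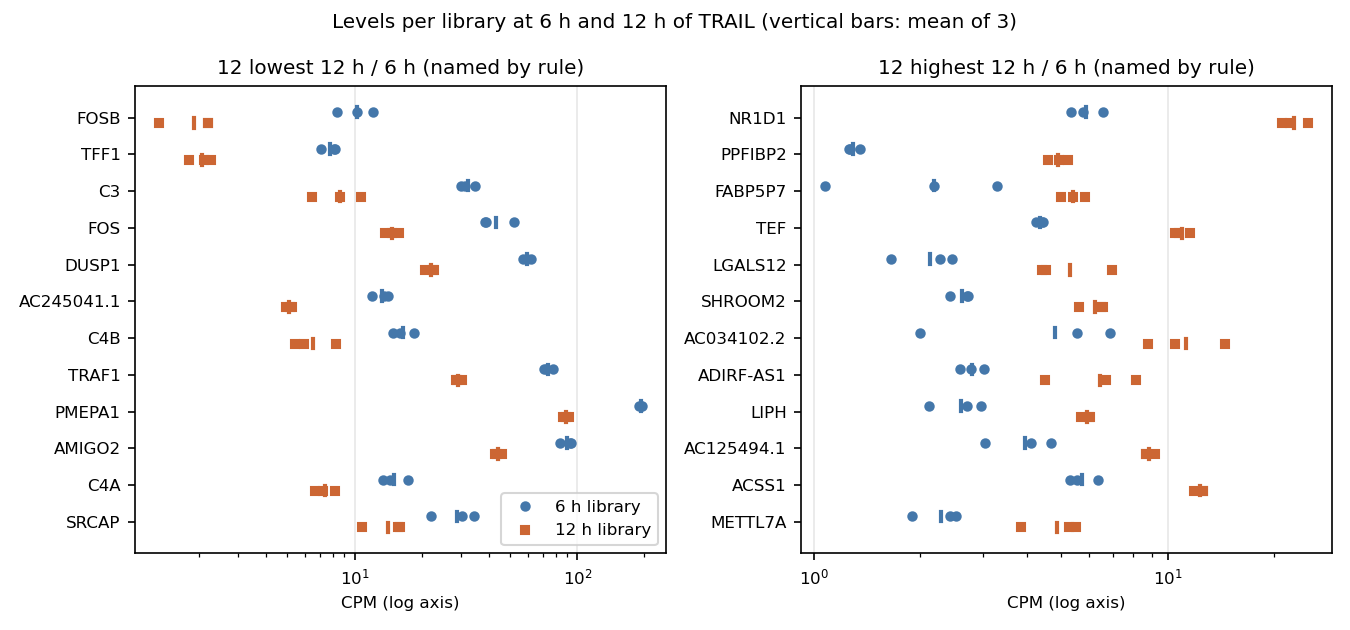
Level of the 12 genes with the lowest (left) and the 12 with the highest (right) log2 fold change of 12 h minus 6 h among called genes whose average log2 CPM reached 2, in CPM on a log axis, with 1 point per library (circles 6 h, squares 12 h) and the mean of 3 as a vertical bar. The 6 h and 12 h libraries do not overlap for any of the 24 genes, since the rule for naming them asked for that.

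The first wave was defined from other libraries. Against 0 h, 100 genes (0.651% of those tested) were called and at least 2-fold higher at 3 h, and 66 (0.430%) were called and at least 2-fold lower. None of the 3 h and 0 h libraries enters the difference of 12 h minus 6 h, although all groups share 1 estimate of the spread. Of the 100 raised genes, 27 (27.0%) were lower at 12 h than at 6 h, against 11.9% of all genes tested, and 3 (3.00%) were higher, against 8.70%. The other 70 were not called. In all, 72 of the 100 had a log2 fold change below 0, with a median of -0.34 against -0.0057 for all genes. Their 12 h libraries all lay below their 6 h libraries for 36 of the 100 (36 genes beside 20.1% of all genes tested) and all above for 5 (beside 17.5%). Side by side, the medians of these 100 genes against 0 h were 1.33 at 3 h, 0.65 at 6 h and 0.36 at 12 h, so that at 12 h their median had come down towards the 0 h level. The 3 h and 0 h libraries also chose these genes, so their medians against 0 h may be overstated. Whether the 0 h level was reached is therefore not settled by these medians.

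The genes lowered at 3 h were examined in the same way. Of the 66 genes lowered at 3 h, 19 (28.8%) were higher at 12 h than at 6 h, against 8.70% of all genes, 3 (4.55%) were lower (FOS, LUZP6 and ROBO1), against 11.9%, and 44 were not called. The ROBO1 call was lost with DESeq2 (-0.49, adjusted p = 0.074). It was also lost without the 6 h replicate 2 (-0.47, edgeR adjusted p = 0.095) or 3 (-0.43, 0.14) or the 12 h replicate 1 (-0.42, 0.11), 2 (-0.54, 0.051) or 3 (-0.52, 0.064). The median of the 66 genes was 0.58 from 6 h to 12 h. Against 0 h, their medians were -1.30 at 3 h, -0.62 at 6 h and -0.13 at 12 h, again with libraries that also chose the genes. Without the 2-fold minimum, 425 of 1389 genes raised at 3 h (30.6%) were lower at 12 h than at 6 h and 332 of 1338 lowered genes (24.8%) were higher.

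Many members of both sets are weakly expressed, and restricting them to an average log2 CPM of at least 2, an alternative chosen after seeing the data, raised the shares. Then 19 of 33 raised genes (57.6%) were lower at 12 h, against 15.4% of the 11369 genes at that level, and 8 of 16 lowered genes (50%) were higher, against 9.82%. Beside the NF-κB and cytokine genes given next, the raised genes of this level that were lower at 12 h included CYP1A1, a xenobiotic-metabolising enzyme, which stood at 14.8, 17.3 and 17.3 CPM at 6 h and at 8.09, 9.23 and 7.83 CPM at 12 h. CYP1A1 had been at 9.02, 8.47 and 8.09 CPM at 0 h, so its 12 h and 0 h levels lay side by side (12 h against 0 h, -0.02). The GTPase gene RRAD (-0.61) and the peptide-hormone receptor gene VIPR1 (-0.96) declined too, VIPR1 with counts that were not whole in any library. Lowered genes that came back included SPRY1, an inhibitor of growth-factor signalling, from 7.08, 7.50 and 7.23 CPM to 15.4, 14.5 and 13.5 CPM (0.99, SE 0.100, edgeR adjusted p = 1.7e-06). At 0 h SPRY1 had been at 16.1, 15.1 and 14 CPM, close to its 12 h levels. MIR210HG (0.94), PPFIA4 (0.91), EGLN3 (0.86) and PFKFB4 (0.59, counts not whole in 17 libraries) rose as well.

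Of the 10 genes with the largest rise at 3 h and an average log2 CPM of at least 2, CXCL1, CSF2, CXCL8, BIRC3, IL6, TNFAIP3 and TRAF1 were called lower at 12 h than at 6 h. The others were not called: NUAK2 (-0.33, edgeR adjusted p = 0.11), JUNB (-0.25, 0.082) and IL11 (-0.21, 0.057). JUNB passed when the 12 h replicate 3 was omitted (-0.39, edgeR adjusted p = 0.0063), without a filter (0.033) and after correction for length and GC content (0.043), and IL11 with limma-voom (0.046) and a mean-count filter (0.049). Of the 5 with the largest fall at 3 h, SPRY1, PPFIBP2 and PFKFB4 were called higher, FOS was called lower, and AL669918.1 was not called by edgeR (-0.91, adjusted p = 0.051). AL669918.1, with fractional counts in 16 libraries, did pass with DESeq2 (adjusted p = 0.013), limma-voom (0.029), non-robust estimation (0.024), a mean-count filter (0.043), no filter (6.5e-10), only the 6 h and 12 h libraries (0.011) and the 6 h replicate 1 omitted (-1.11, 0.022). FOS stood at 48.6, 35.3 and 48.0 CPM at 0 h, 13.6, 11.6 and 11.5 CPM at 3 h, 38.6 to 51.7 CPM at 6 h and 13.7 to 15.9 CPM at 12 h, so that it fell, recovered and fell again. FOSB, which fell less at 3 h (-0.86 against 0 h, edgeR adjusted p = 0.0083), took the same course. It rose by 1.44 from 3 h to 6 h before its fall at 12 h.

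**Figure D2:**
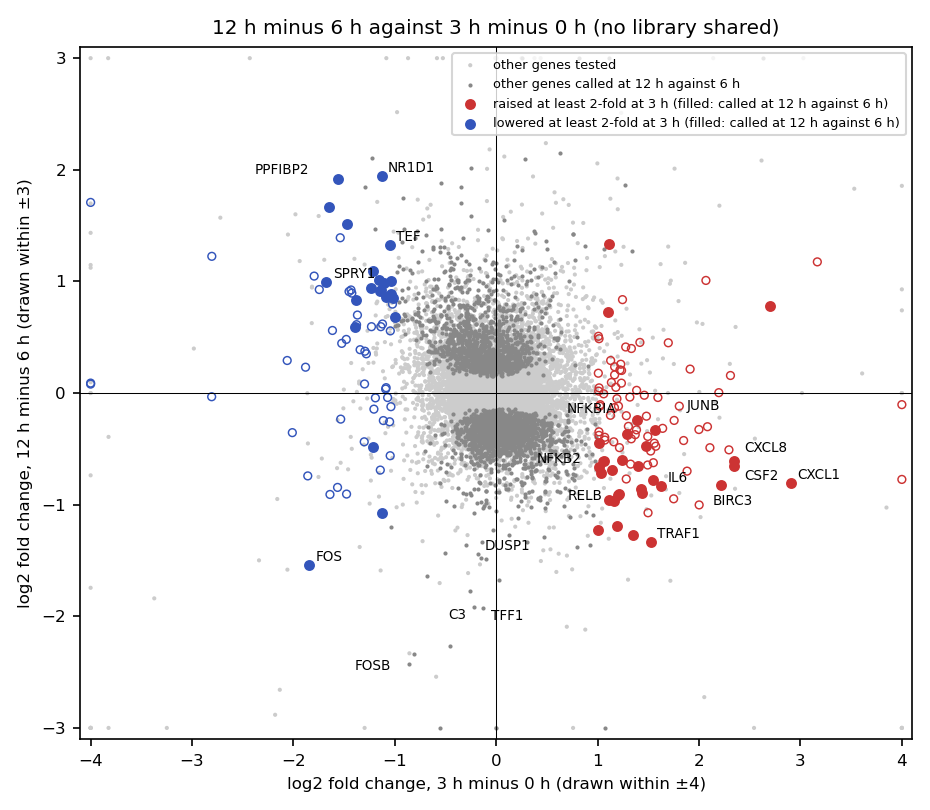
Each point is 1 of 15365 genes, with the log2 fold change of 3 h minus 0 h on the x axis and of 12 h minus 6 h on the y axis (values beyond the axes are drawn at the edge). Of the 100 raised genes (red), 72 lie below 0 on the y axis, 27 of them called, and of the 66 lowered genes (blue) 19 are called above 0.

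Of the early genes that declined, only members of the NF-κB, NF-κB target and cytokine lists described below were considered, because NF-κB is known to bind several. These 12 genes do not stand for all early genes that declined. A match in the 250 bases before the start was found for 6 of them, and promoters are shown from among these 6. Each is 210 bases 5′ to 3′ on the gene's strand, ending at the base before the start of the gene in RefSeq (GRCh38.p14), with matches to the NF-κB consensus in capitals.
IL6 (chr7:22726990-22727199, plus strand): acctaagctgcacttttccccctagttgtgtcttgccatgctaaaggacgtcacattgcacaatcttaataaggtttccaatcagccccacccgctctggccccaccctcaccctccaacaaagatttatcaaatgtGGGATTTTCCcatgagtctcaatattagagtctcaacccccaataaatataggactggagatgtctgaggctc
BIRC3 (chr11:102317274-102317483, plus strand): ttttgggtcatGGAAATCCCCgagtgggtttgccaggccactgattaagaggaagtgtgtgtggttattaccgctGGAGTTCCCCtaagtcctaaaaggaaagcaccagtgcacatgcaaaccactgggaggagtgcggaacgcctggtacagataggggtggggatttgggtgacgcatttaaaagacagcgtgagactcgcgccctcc
CXCL1 (chr4:73869183-73869392, plus strand): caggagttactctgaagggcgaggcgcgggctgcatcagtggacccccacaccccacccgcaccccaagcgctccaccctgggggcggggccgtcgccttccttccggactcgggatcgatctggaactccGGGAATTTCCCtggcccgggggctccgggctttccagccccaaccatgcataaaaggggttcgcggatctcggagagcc
CXCL2 (chr4:74099196-74099405, minus strand): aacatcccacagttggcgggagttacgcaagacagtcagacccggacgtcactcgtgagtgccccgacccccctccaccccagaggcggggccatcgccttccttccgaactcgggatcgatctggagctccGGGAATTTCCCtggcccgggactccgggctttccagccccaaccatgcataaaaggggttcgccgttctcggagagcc
NFKBIA (chr14:35404750-35404959, minus strand): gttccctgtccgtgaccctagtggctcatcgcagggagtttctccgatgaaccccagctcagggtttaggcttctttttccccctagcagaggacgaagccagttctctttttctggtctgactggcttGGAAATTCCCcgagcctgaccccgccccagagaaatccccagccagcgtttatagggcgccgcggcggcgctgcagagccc
The CXCL1 and CXCL2 promoters, of related chemokine genes on the same chromosome, share the site GGGAATTTCCC, which lies 79 to 69 bases before the start of CXCL1 and 78 to 68 bases before that of CXCL2. IL6 has GGGATTTTCC at 73 to 64 bases before its start, and NFKBIA has GGAAATTCCC at 81 to 72. BIRC3 has a pair, GGAAATCCCC at 199 to 190 and GGAGTTCCCC at 135 to 126. TNFAIP3 also held matches in its window. TRAF1, NFKB2, CSF2, CXCL8, IL1A and PTGS2 had none in the same 210 bases, which says only that these letters are not in that window.

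Over windows from 250 bases before to 50 bases after the start, found in RefSeq for 10563 of the 15365 genes, the consensus (both strands) matched 13.1% of all genes, 14.3% of those lower at 12 h (205 of 1431) and 12.0% of those higher (118 of 981). It matched 32.0% of the genes raised at least 2-fold at 3 h (16 of 50). Among these, the share was 31.8% for genes lower at 12 h (7 of 22) and 29.6% for genes not called (8 of 27). The AP-1 motif TGANTCA matched 4.84% of all genes, 4.40% of the lower and 6.22% of the higher genes, and in genes lower by at least 2-fold the AP-1 motif and the NF-κB consensus each matched 20.8% (5 of 24). In genes higher by at least 2-fold the shares were 8.33% (5 of 60) for AP-1 and 15% (9 of 60) for NF-κB. The motif CACGTG, which clock factors bind, matched 10.0% of all genes, 12.6% of the lower and 9.79% of the higher genes, and the cyclic AMP response element TGACGTCA matched 3.20%, 4.05% and 3.36%. These matches describe letters and not binding.

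Most genes of the NF-κB system itself declined. Of 22 subunits, inhibitors and upstream regulators, 15 were lower at 12 h than at 6 h and the other 7 were not called, with a median log2 fold change of -0.35 against -0.0057 for all genes. All 5 subunit genes were among the 15. For this and the later lists, the shares of all genes tested were 11.9% lower and 8.70% higher. At an average log2 CPM of at least 2 they were 15.4% and 9.82%. The higher counts of the cytokine, ERK, EGF receptor, TGF-β, YAP and mTOR lists below lay near these shares. So did the lower counts of the hypoxia and clock lists. RELB, which pairs with the product of NFKB2 (ENSG00000104856, chromosome 19, 45001430 to 45038198), stood at 48.1, 49.4 and 48.0 CPM at 6 h and at 23.3, 24.7 and 28.8 CPM at 12 h. Its 6 h libraries were nearly equal, and its log2 fold change was -0.92 (SE 0.081, edgeR adjusted p = 3.2e-07). NFKB1, which encodes the p105 precursor of p50, stood at 69.4, 77.3 and 84.2 CPM at 6 h and at 38.6, 45.4 and 41.3 CPM at 12 h (-0.88, SE 0.093, adjusted p = 3.1e-06). NFKB2, the p100 precursor of p52 named in the series title (ENSG00000077150, chromosome 10, 102394110 to 102402529), stood at 165, 157 and 155 CPM at 6 h and at 104, 93.3 and 105 CPM at 12 h, a 1.58-fold fall beyond the spread of both groups (-0.66, SE 0.066). RELA, which encodes the activating subunit p65, fell by 0.33 (adjusted p = 5.4e-04) from 129 to 133 CPM to 99.2 to 113 CPM. REL was lower by 0.68, from 5.77 to 6.95 CPM to 3.55 to 4.72 CPM (adjusted p = 0.043), and 16 libraries held fractional counts for it. The REL call was lost when any library but the 12 h replicate 2 was left out, with a highest adjusted p of 0.14 over its alternatives.

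TRAF1, an adaptor that NF-κB induces and that binds TNF receptor complexes, declined most in this group (ENSG00000056558, chromosome 9, 120902393 to 120929173). It stood at 70.7, 78.0 and 72.1 CPM at 6 h and at 28.8, 28.6 and 30.3 CPM at 12 h, a 2.52-fold fall (-1.33, SE 0.071, edgeR adjusted p = 2.0e-10). At 0 h it had been at 14.9, 16.8 and 18.1 CPM, so at 12 h it was still above its starting level (12 h against 0 h, 0.82, adjusted p = 1.6e-06). The adaptors TRAF3 (-0.63) and TRAF2 (-0.41), which restrain NF-κB-inducing kinase, also fell. Of the kinases, CHUK fell by 0.51 (adjusted p = 0.0067), while IKBKB (0.030), IKBKG (-0.039) and MAP3K14 (-0.041) were not called.

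Inhibitors and feedback genes of the pathway came next. NFKBIA, the IκBα gene and an early target, stood at 75.0, 66.1 and 70.0 CPM at 6 h and at 60.6, 56.9 and 61.6 CPM at 12 h (-0.24, SE 0.062, edgeR adjusted p = 0.010). Its groups did not overlap, but the call was lost under upper-quartile scaling (-0.17, 0.070). NFKBIE (-0.36), NFKBIZ (-0.44) and TNIP1 (-0.40) were called lower too. TNFAIP3, the ubiquitin-editing enzyme A20, stood at 16.4, 18.5 and 16.8 CPM at 6 h and at 13.8, 14.9 and 12.3 CPM at 12 h (-0.33, SE 0.094, adjusted p = 0.018). This call was lost on omitting the 6 h replicate 2 (-0.28, adjusted p = 0.091) or the third of 12 h (-0.26, 0.093), under upper-quartile scaling (-0.26, 0.059) and with the close replicates averaged (-0.31, 0.074). The deubiquitinase CYLD was lower by 0.29 (adjusted p = 0.031), a call lost under 7 of 20 alternatives, among them the omission of the 6 h replicate 2 (-0.25, 0.12), the third of 6 h (-0.23, 0.15), the first of 12 h (-0.25, 0.11) or the third of 12 h (-0.27, 0.093). NFKBIB (-0.19), TNIP2 (-0.021), BCL3 (0.060) and TNFAIP2 (0.11) were not called.

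For these 22 genes the decline did not continue. From 12 h to 24 h, a comparison that shares the 12 h libraries, 9 of the 22 genes were called higher (6.42% of all genes were) and 0 lower (5.6% of all genes were), with a median of 0.25. TRAF1 returned to 49.3, 53.4 and 48.3 CPM (0.78, edgeR adjusted p = 3.6e-06), NFKB1 to 53.4, 58.5 and 59.5 CPM (0.45, 0.0056) and RELB to 36.8, 32.2 and 32.2 CPM (0.40, 0.0053). From 3 h on, the 12 h libraries had the lowest levels of TRAF1. The early genes as a whole had no such rise in their median. Of the 100 genes raised at least 2-fold at 3 h, 8 were called higher and 9 lower from 12 h to 24 h (median -0.29). At an average log2 CPM of at least 2, 7 of 33 were higher and 5 lower (median -0.013). Of the 1389 genes raised at any fold, 62 were higher and 281 lower (median -0.15).

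**Figure D3:**
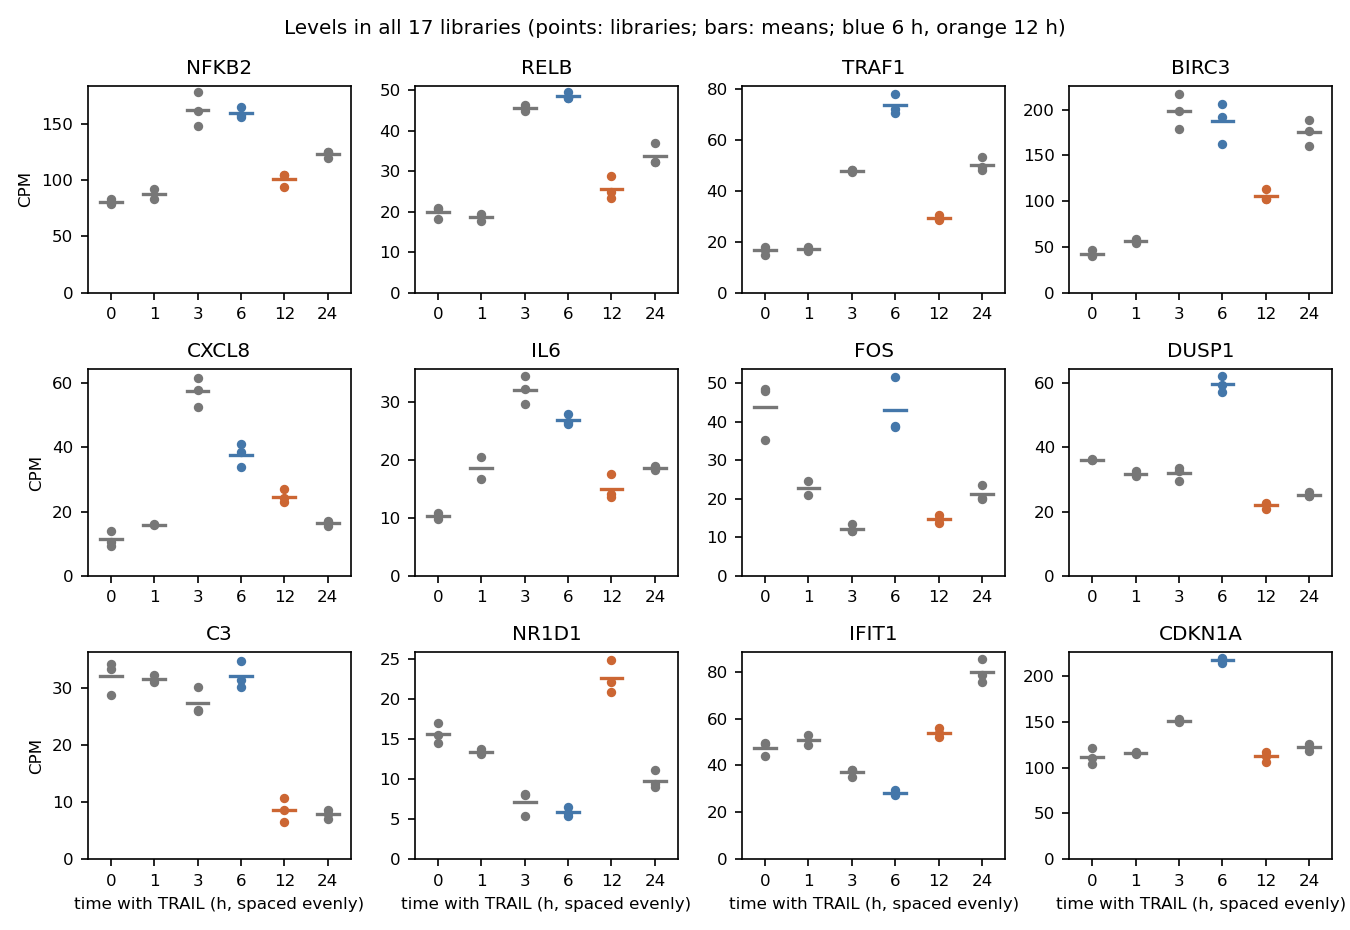
Level in CPM (y axis, starting at 0) of 12 genes in all 17 libraries by hours with TRAIL (x axis, spaced evenly), with 1 point per library, bars at the means, 6 h in blue and 12 h in orange. NFKB2, RELB, TRAF1, BIRC3, CXCL8, IL6, FOS, DUSP1, C3 and CDKN1A are lower at 12 h than at 6 h in every library, and NR1D1 and IFIT1 are higher.

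Other known NF-κB targets were divided. Of 18 tested, 7 were lower, 1 was higher and 10 were not called (median -0.13). BIRC3, which encodes the inhibitor of apoptosis cIAP2, stood at 162, 207 and 193 CPM at 6 h and at 103, 113 and 102 CPM at 12 h. It fell 1.77-fold (-0.82, SE 0.089, edgeR adjusted p = 4.8e-06), stayed above its 39.8 to 46.5 CPM at 0 h, and was higher again at 24 h (161, 189 and 177 CPM). CD83 (-0.51), the proteoglycan SDC4 (-0.45), the adhesion receptor ICAM1 (-0.43) and CFLAR (-0.34), which encodes the caspase-8 inhibitor cFLIP, were called lower, ICAM1 and CFLAR with counts that were not whole in 14 and 17 libraries. PTGS2, the inducible cyclooxygenase, was lower by 0.86 (adjusted p = 0.018), from 5.56, 5.84 and 6.21 CPM to 1.65, 4.31 and 3.5 CPM. Its call was lost on omitting the 6 h replicate 2 (-0.87, 0.051) or 3 (-0.82, 0.069) or the first of 12 h (-0.59, 0.064). IRF1 was called higher (0.28), and its counts were not whole in any library.

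Cytokines and chemokines were examined as a list of their own. Of 21 tested, 7 were lower, 2 were higher and 12 were not called (median -0.21). IL6, a cytokine of inflammation (ENSG00000136244), stood at 27.9, 26.1 and 26.5 CPM at 6 h and at 14.1, 17.5 and 13.5 CPM at 12 h (-0.83, SE 0.097, edgeR adjusted p = 9.1e-06). At 0 h it was at 9.83, 10.9 and 10.3 CPM, below each 12 h library. CXCL8, a chemokine that attracts neutrophils (ENSG00000169429), stood at 40.9, 38.4 and 33.8 CPM at 6 h and at 24.1, 27.0 and 22.9 CPM at 12 h (-0.61, SE 0.106, adjusted p = 5.3e-04). It was one of the genes that went on falling, to 15.5, 17.1 and 16.8 CPM at 24 h (-0.59, adjusted p = 0.0034). The related chemokine CXCL1 fell from 5.37, 5.90 and 5.94 CPM to 3.91, 3.31 and 2.67 CPM (-0.81, SE 0.166, adjusted p = 0.0019), and CXCL2 from 10.2, 9.09 and 9.55 CPM to 6.51, 5.72 and 6.16 CPM (-0.65, SE 0.137).

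CSF2, which encodes the growth factor GM-CSF, stood at 24.5, 24.5 and 21.4 CPM at 6 h and at 16.1, 13.4 and 15.4 CPM at 12 h (-0.65, SE 0.120, edgeR adjusted p = 8.6e-04). LIF, of the IL6 family, fell by 0.61 from 75.5 to 79.7 CPM to 47.9 to 53.1 CPM. IL1A was lower by 0.78 at 1.06 to 1.58 CPM (adjusted p = 0.044), a call lost under 12 of its 19 alternatives, among them the omission of the 6 h replicate 1 (-0.63, 0.15), the 6 h replicate 3 (-0.79, 0.11) and each of the 12 h replicates 1 (-0.89, 0.057), 2 (-0.88, 0.062) and 3 (-0.59, 0.18). Rising members were CX3CL1 (0.66, from 2.59 to 3.38 CPM to 4.11 to 4.94 CPM) and CSF1, the macrophage growth factor, which was at 205 to 213 CPM at 6 h and at 232 to 262 CPM at 12 h (0.22, adjusted p = 0.0062). CXCL3 (-0.48, adjusted p = 0.17), IL11 (-0.21), IL32 (-0.027), IL24 (-0.0072) and the TRAIL gene TNFSF10 (0.042) were not called. TNF (-0.77), IL1B (-0.77), CCL5 (0.84), CXCL10 (1.17) and CXCL11 (0.17) were scarce and were not called either. The list members CXCL5, CXCL6, CCL2, CCL20 and TSLP had at most 6 counts in any library and were not tested.

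Immediate-early transcription factors, which growth and stress signals induce within minutes, were lower in 13 of 23 cases, and the other 10 were not called (median -0.31). Without the 6 h replicate 1 the count was 8, and it was also 8 under upper-quartile scaling. Calls for EGR1, IER2, MYC and NR4A1 were among those lost under both. Without the 6 h replicate 1 their edgeR adjusted p-values were 0.17, 0.098, 0.067 and 0.12. NR4A1 was also not called with DESeq2 (-0.48, adjusted p = 0.155). Beside FOSB and FOS, KLF6 stood at 280, 287 and 292 CPM at 6 h and at 184, 198 and 184 CPM at 12 h (-0.60, SE 0.055, edgeR adjusted p = 5.1e-07). KLF10 (-0.53), ATF3 (-0.51), MAFF (-0.43), KLF4 (-0.31) and SRF (-0.29) were also called lower. The AP-1 genes differed among themselves: FOSL1 was lower by 0.28 (adjusted p = 0.019), whereas JUN (-0.16), JUND (-0.25), JUNB (-0.25) and FOSL2 (0.035) were not called. The FOSL1 call was lost under upper-quartile scaling and without the 6 h replicate 1 or the 12 h replicate 2, with a highest adjusted p of 0.099. Of 18 feedback genes of the ERK pathway, 6 were lower and 2 higher, the latter near the 8.70% of all genes. DUSP1 led at the low end and SPRY1 at the high end. The higher count was 1 when any of the 6 h replicates 2 and 3 or the 12 h replicates 1, 2 and 3 was omitted. DUSP10 fell by 0.48, from 51.4 to 53.1 CPM to 36.2 to 38.5 CPM, and SPRY2 by 0.40.

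Regulators of mRNA decay, which shorten the life of cytokine transcripts, were called lower in 6 of 14 cases. All 14 had a log2 fold change below 0 (median -0.27), and 8 were not called. ZFP36L1, which binds AU-rich elements in mRNAs, stood at 207, 236 and 240 CPM at 6 h and at 158, 159 and 161 CPM at 12 h (-0.52, SE 0.066, edgeR adjusted p = 2.4e-05). ZC3H12C (-0.51) and KHSRP (-0.28) fell too.

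Among the EGF receptor family and its ligands, 4 of 9 were lower and 1 was higher. EGFR stood at 282, 332 and 329 CPM at 6 h and at 210, 242 and 223 CPM at 12 h (-0.48, SE 0.085, edgeR adjusted p = 6.1e-04). The ligands HBEGF (-0.43) and NRG1 (-0.42) fell with it. ERBB3, a receptor of NRG1, rose from 2.02, 2.32 and 1.89 CPM to 4.73, 4.26 and 4.72 CPM (1.14, SE 0.163, adjusted p = 7.8e-05). EREG was lower by 0.56 (adjusted p = 0.023), a call lost without the 6 h replicate 2 (-0.44, 0.12) or 3 (-0.47, 0.11) or the 12 h replicate 1 (-0.52, 0.076) or 3 (-0.46, 0.10).

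Of 27 TRAIL receptor and apoptosis genes, 8 were lower, 4 were higher and 15 were not called (median -0.15). Omitting the 6 h replicate 2 or 3 left 5 lower genes, and upper-quartile scaling 5, while there were 13 after correction for transcript length and GC content. Survival genes were among the lower ones. BIRC2, which encodes cIAP1, went from 215, 240 and 246 CPM to 144, 166 and 153 CPM (-0.60, SE 0.083, edgeR adjusted p = 6.3e-05). MCL1, an anti-apoptotic BCL2 relative, went from 399, 421 and 414 CPM to 292, 310 and 300 CPM (-0.45, SE 0.050, adjusted p = 4.9e-06). Both death receptor genes were lower as well, TNFRSF10A by 0.41 (counts not whole in 16 libraries) and TNFRSF10B by 0.25, from 157, 160 and 167 CPM to 131, 146 and 130 CPM. CYCS, the cytochrome c gene, fell by 0.43. Calls for BCL2 (-0.39), RIPK1 (-0.29) and PMAIP1 (-0.26) were each lost on omitting the 6 h replicate 2 or 3 or the third of 12 h, and for RIPK1 and PMAIP1 also the first of 12 h, with highest adjusted p-values of 0.14, 0.10 and 0.10.

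The 4 higher genes were all caspase genes. CASP8, the initiator caspase of the death receptor complex, went from 26.0, 24.6 and 25.4 CPM to 30.8, 32.2 and 30.5 CPM (0.30, SE 0.072, edgeR adjusted p = 0.0065). CASP9, the initiator of the mitochondrial route, went from 6.70, 6.30 and 6.85 CPM to 11.9, 8.83 and 10.1 CPM (0.62, SE 0.118, adjusted p = 0.0010), and CASP6 rose by 0.47. CASP10 was higher by 0.51 (adjusted p = 0.023), a call lost without the 6 h replicates 1 (0.36, 0.10) or 2 (0.49, 0.078) or the 12 h replicates 1 (0.48, 0.074) or 2 (0.47, 0.070). BAX (-0.00074), FADD (-0.21) and XIAP (-0.28) were not called. In bulk RNA, fewer cells of a kind and less RNA per cell cannot be told apart.

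Immune suppression genes were split, with 3 of 14 lower, 3 higher and 8 not called. CD274, the gene of the checkpoint ligand PD-L1, stood at 44.9, 47.0 and 50.2 CPM at 6 h and at 33.3, 36.6 and 33.9 CPM at 12 h (-0.45, SE 0.081, edgeR adjusted p = 6.4e-04). PDCD1LG2, which encodes PD-L2, went from 8.09, 9.09 and 8.09 CPM to 3.57, 6.17 and 5.66 CPM (-0.69, adjusted p = 0.0043). TGFB2 was lower by 0.77, with counts that were not whole in any library. PTGES, which makes prostaglandin E, rose from 23.3, 22.0 and 17.7 CPM to 39.6, 37.5 and 44.4 CPM (0.95, SE 0.090, adjusted p = 6.7e-07). At 0 h PTGES had been at 36.5, 35.2 and 36.0 CPM. LGALS1 (0.32) and ARG2 (0.73) were called higher at adjusted p-values of 0.024 and 0.025, and both calls were lost with the close replicates averaged, which left 1 higher gene. The LGALS1 call was also lost on omitting the 6 h replicate 2 (0.30, 0.085) or 3 (0.28, 0.10) or the 12 h replicate 1 (0.27, 0.10) or 3 (0.27, 0.099), and the ARG2 call on omitting the 6 h replicate 2 (0.65, 0.098) or the second of 12 h (0.56, 0.12). ARG2 counts were not whole in 16 libraries. The list's median of -0.0098 became 0.063 under upper-quartile scaling. The checkpoint and metabolic genes CD276 (-0.018), CD47 (0.085) and NT5E (-0.14) were not called.

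Genes that TGF-β and BMP signals regulate fell in 9 of 18 cases and rose in 2 (median -0.20), or in 1 when the 6 h replicate 1 or 2 or the third of 12 h was omitted. PMEPA1, a feedback inhibitor of TGF-β signalling, stood at 189, 192 and 195 CPM at 6 h and at 85.8, 89.0 and 91.7 CPM at 12 h, with little spread in either group (-1.11, SE 0.052, edgeR adjusted p = 2.3e-11). It fell further to 51.5 to 57.3 CPM at 24 h. TGFBI (-0.57, adjusted p = 1.1e-06), SKIL (-0.65), INHBA (-0.72) and SMAD7 (-0.42) also fell. BMP4 was on the other side, rising from 114, 105 and 105 CPM to 162, 159 and 178 CPM (0.62, SE 0.060, adjusted p = 1.0e-06). Mesenchymal, matrix and protease genes were lower in 11 of 23 cases, and the other 12 were not called (median -0.19). FN1, the fibronectin gene, fell 1.87-fold (-0.90, SE 0.114, adjusted p = 4.3e-05), and the basement membrane genes COL4A1 (-0.67), COL4A2 (-0.51) and LAMB3 (-0.42) fell with it. Among 18 YAP and TAZ targets, 8 were lower and 2 higher. The lower count was 4 on omitting the 6 h replicate 2, 5 on omitting the third of 6 h or the first of 12 h, and 3 under upper-quartile scaling. The higher count was 1 when any of these or the second of 12 h was omitted.

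CDKN1A, which encodes the cell cycle inhibitor p21 (ENSG00000124762), stood at 219, 215 and 220 CPM at 6 h and at 107, 113 and 117 CPM at 12 h. It fell 1.94-fold (-0.95, SE 0.057, edgeR adjusted p = 1.3e-09) and lay in its 0 h range of 104 to 121 CPM at 12 h. Of 17 p53 targets, a list to which CDKN1A belongs, 5 were lower and 12 were not called. The 5 became 3 when the 6 h replicate 2 or 3 or the 12 h replicate 1 or 3 was omitted.

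Genes that build ribosomes formed one of the lists with the highest share of declines: 17 of 26 were lower and the other 9 were not called (median -0.25). DDX21, a nucleolar RNA helicase, stood at 360, 441 and 425 CPM at 6 h and at 242, 284 and 258 CPM at 12 h (-0.65, SE 0.125, edgeR adjusted p = 0.0022). RRP12 (-0.47), POLR1A, the largest subunit of RNA polymerase I (-0.47), and UTP20 (-0.41) fell too. Of the structural proteins of the ribosome, 0 of 40 cytosolic ribosomal protein genes were called by edgeR, DESeq2 or limma-voom, 2 were higher and 1 was lower at an unadjusted p below 0.05, and the median was 0.095. Omitting the 6 h replicate 1 gave 2 higher, and omitting the second of 12 h or using no filter gave 3. Cytosolic and mitochondrial heat shock genes were lower in 6 of 15 cases, and the other 9 were not called. HSPA8, an abundant chaperone, fell 1.74-fold (-0.80, SE 0.132, adjusted p = 6.2e-04), and DNAJB1 fell by 0.54. HSPA1B (-0.77) and HSPA1A (-0.43) are near-identical copies and their separate values are uncertain. HSPA5, the chaperone of the endoplasmic reticulum, rose instead, from an average of 983 CPM at 6 h (SD 24.6, n = 3) to 1399 CPM at 12 h (SD 43.5, n = 3) by 0.51 on the log2 scale (SE 0.056, edgeR adjusted p = 4.6e-06), and 5 of 20 genes of its list were higher with 1 lower (0 when the 6 h replicate 2 was omitted).

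Cell cycle genes were examined by phase. Of 32 DNA replication genes, 14 were lower and the other 18 were not called (median -0.15). It was 7 when either the 6 h replicate 2 or 3 was omitted, 8 when the first of 12 h was, and 8 under upper-quartile scaling. GINS1 (-0.45), LIG1 (-0.44) and RRM2 (-0.34), which act in origin firing, ligation and nucleotide supply, were called lower. Of 30 mitotic genes, 6 were lower and 6 were higher, and their median of -0.068 changed sign to 0.0054 under upper-quartile scaling. KIF20A, a kinesin of cytokinesis, rose from 168, 164 and 158 CPM to 256, 251 and 251 CPM (0.63, SE 0.051, edgeR adjusted p = 1.2e-07), with CDC25C (0.42) and PTTG1 (0.46). CDK1 (-0.33), TOP2A (-0.37) and MKI67 (-0.42) fell. The higher count was 3 when the 6 h replicate 3 or the first of 12 h was omitted.

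Interferon-stimulated genes rose. Of 27, 14 were higher and 13 were not called, with a median of 0.40, the highest of the lists given here. IFIT1, which binds foreign RNA (ENSG00000185745), stood at 28.4, 27.3 and 29.4 CPM at 6 h and at 52.3, 56.0 and 53.6 CPM at 12 h, a 1.90-fold rise (0.93, SE 0.070, edgeR adjusted p = 4.2e-08). It had been at 43.8 to 49.5 CPM at 0 h, so it was lower at 6 h than at 0 h and at 12 h. IFIT3 (0.57), OAS2 (0.62), MX1 (0.57) and GBP2 (0.55) rose as well, and IFIT2 (0.64) and IRF9 (0.64) did so with counts that were not whole in any library. From 12 h to 24 h, with the 12 h libraries shared, 13 of the 27 were called higher, against 6.42% of all genes. In MHC class I antigen presentation 6 of 14 genes were lower and the other 8 were not called. HLA-B (-0.46), HLA-C (-0.28) and TAP2 (-0.31) were called lower, but their counts were not whole in any library, and the median of this list (-0.061) changed sign under upper-quartile scaling (0.012), where 3 were lower.

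Circadian clock genes rose in 7 of 16 cases and fell in 2 (median 0.29). With the 6 h replicate 1 omitted, 4 were higher. The calls lost then included CIART (0.82, edgeR adjusted p = 0.087), CRY2 (0.30, 0.097) and NR1D2 (0.30, 0.060). CRY2 was also not called with DESeq2 (0.32, adjusted p = 0.078). Beside NR1D1 and TEF, DBP, a transcription factor of clock output, rose from 1.90, 1.53 and 1.46 CPM to 4.39, 3.76 and 5.78 CPM (1.51, SE 0.178, edgeR adjusted p = 9.9e-06), although all libraries held fractional counts for it. DBP had been lower at 6 h than at 0 h (-1.57, edgeR adjusted p = 4.9e-06), and at 12 h against 0 h it was not called (-0.060). The repressors CRY1 (-0.47) and BHLHE40 (-0.35) fell. NR1D1 turned down again at 24 h to 9.08, 11.1 and 9.34 CPM (-1.20, adjusted p = 1.0e-05).

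Hypoxia and glycolysis genes were higher in 9 of 24 cases and lower in 2 (median 0.17), the lower count being 0 when the 6 h replicate 2 or 3 or the 12 h replicate 1 was omitted, and 1 when the first of 6 h or the second of 12 h was. NDRG1, a stress-induced gene, stood at 73.7, 86.3 and 83.6 CPM at 6 h and at 141, 138 and 161 CPM at 12 h (0.85, SE 0.099, edgeR adjusted p = 1.3e-05). EGLN3, an oxygen-sensing hydroxylase gene, went from 10.0, 8.16 and 9.07 CPM to 16.1, 15.7 and 17.9 CPM (0.86, SE 0.104, adjusted p = 1.2e-05), and the glucose transporter gene SLC2A3 (counts not whole in 14 libraries) rose by 0.68. Of 12 genes in a list of DDIT4, the sestrins and other genes tied to mTOR, not all of them restraints, 4 were lower and 1 was higher. IRS2 (-0.48), ARRDC4 (-0.39), SESN2 (-0.37) and TXNIP (-0.21) were the lower ones, a count that was 1 when the 6 h replicate 2 or 3 was omitted and 2 when the third of 12 h was. DDIT4, which restrains mTOR, rose from 84.1, 81.4 and 88.7 CPM to 137, 130 and 131 CPM (0.65, SE 0.067, adjusted p = 2.3e-06).

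Other lists stayed near the background or depended on a library. Proteasome subunit genes were higher in 7 of 30 cases and lower in 2, but omitting the 6 h replicate 2 left 1 higher, omitting the third of 6 h or the first of 12 h left 3, and omitting the first of 6 h gave 12. Upper-quartile scaling gave 17 higher, and omitting any of the 6 libraries left 1 lower. Of 30 nuclear respiratory chain genes, 2 were higher, with a median of 0.18. The count was 11 when the 6 h replicate 1 or the 12 h replicate 2 was omitted, and 1 when any of the other 4 was. It was also 11 with library size alone, upper-quartile scaling or no filter, and 7 with DESeq2. The 13 protein-coding genes of the mitochondrial genome had a median of 0.28 and were called in 0 cases by edgeR, DESeq2 or limma-voom (1 higher at an unadjusted p below 0.05), while omitting the 6 h replicate 1 gave 2 higher and edgeR without the filter on low counts gave 12. Cholesterol and fatty acid synthesis genes were lower in 3 and higher in 4 of 30 cases, and ATF4 amino acid response genes in 4 and 4 of 22. For cholesterol, the 6 h replicate 2 or 3 left out gave 1 lower and 2 higher, the 12 h replicate 1 left out gave 1 lower, and the 12 h replicate 2 or 3 left out gave 2 higher. For ATF4, leaving out the 6 h replicate 2 or 3 gave 2 lower and 2 higher, and leaving out the 12 h replicate 1 gave 2 higher.

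**Figure D4:**
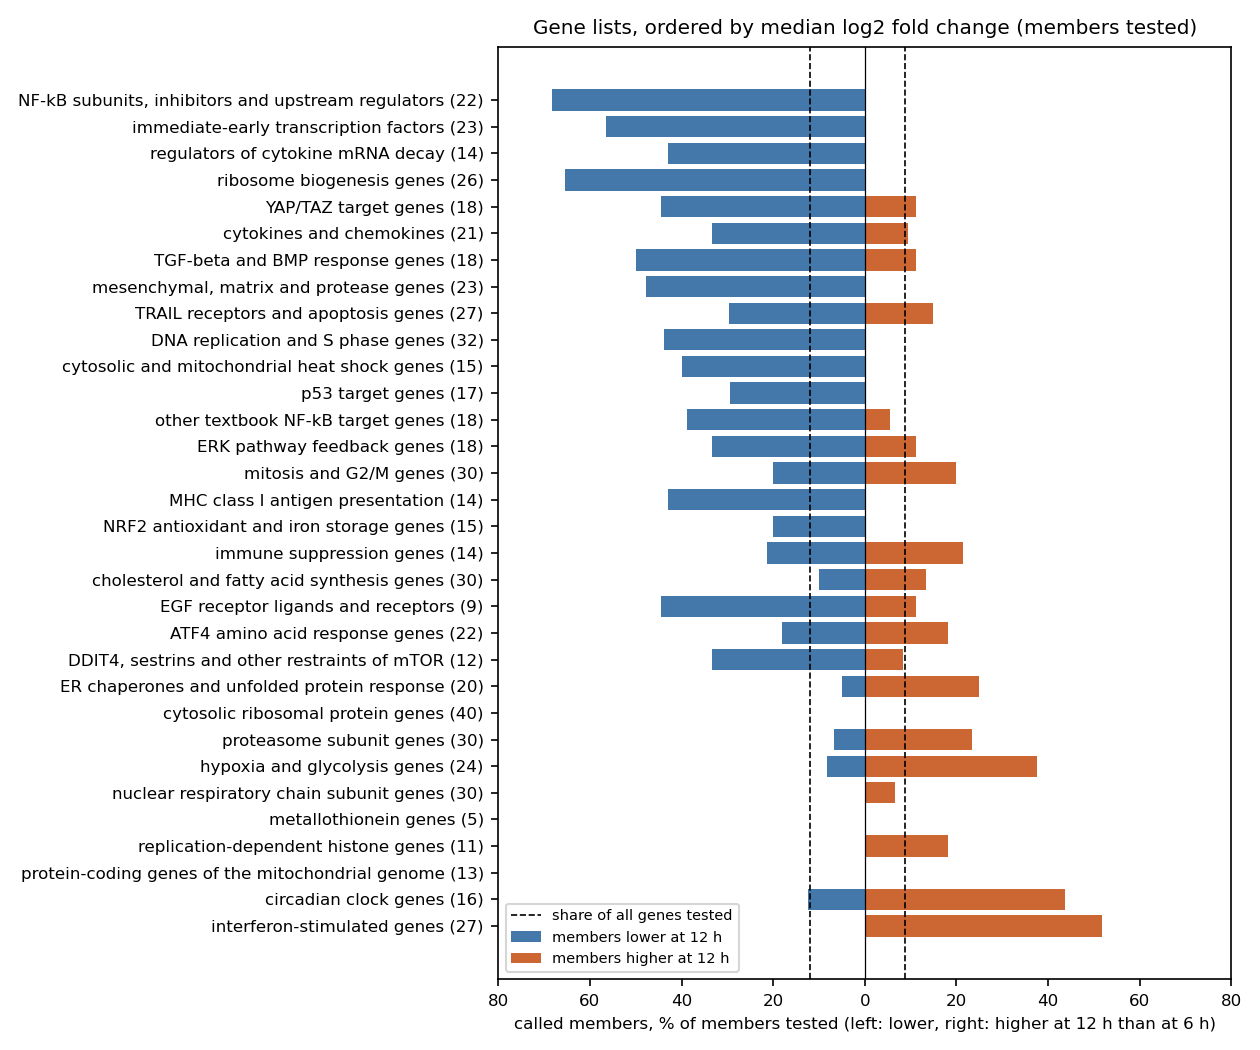
Share of tested members called lower (left, blue) and higher (right, orange) at 12 h than at 6 h for each gene list, in percent, ordered by median log2 fold change, with the number tested in brackets and dashed lines at the shares of all genes (11.9% lower, 8.70% higher). NF-κB subunits, inhibitors and upstream regulators lead the declines with 15 of 22, and interferon-stimulated genes the rises with 14 of 27.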

How the data were processed

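RNA of the 17 libraries was sequenced from stranded mRNA libraries with paired ends, per the labels' protocols. The authors deposited 1 table of gene-level expected counts, which its name credits to RSEM and which are not normalized. Of these values, 10.8% were not whole numbers, as arises where fragments are shared between genes. The submitters' processing notes name cutadapt 1.18, STAR 2.7.0f and the build hg38. The RSEM version, annotation release and strand setting are not given in the sources used here. Each of the 17 columns matched 1 library and 0 columns were left over. Gene positions are those of GENCODE 29 (GRCh38).

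The deposited expected counts were rounded to whole numbers, filtered with filterByExpr (15365 genes) and scaled by TMM in edgeR 4.0.16 (R 4.3.3). One quasi-likelihood model with robust estimation and a mean per time was fitted to all 17 libraries, so that groups share 1 estimate of the spread (common biological coefficient of variation 7.06%). Adjusted p-values follow Benjamini and Hochberg over all genes tested. Each standard error was derived from the F statistic and the coefficient without shrinkage. Levels are CPM on TMM-scaled totals, and compare libraries but not genes of different length. The procedure was tested on simulated data.

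The genes named are NFKB2, the 12 lowest and the 12 highest log2 fold changes among called genes whose average log2 CPM reached 2 and whose groups showed no overlap, the 10 highest and 5 lowest at 3 h against 0 h at that level, and list members with their own result. Further genes of the early sets were named after their values were seen. The members of the comparison and all lists were chosen with earlier results of these data known, so lists are described by counts and medians without a test. Alternatives were RLE, upper-quartile and library-size scaling, the table unfiltered or kept at a mean of 10 counts, DESeq2 1.42.0, limma-voom (limma 3.58.1), non-robust estimation, only the 6 h and 12 h libraries, the replicate number as a block, unrounded counts, averaged close replicates, correction for length and GC content with and without the block, early sets without a fold minimum or restricted to the better expressed genes (average log2 CPM from 2 up), and each library left out. A few list members are not reported here by name.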

Additional observations from a re-analysis of the deposited data

How the results depend on the processing

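Of 3298 values of 165 genes recomputed under 20 alternatives, 3098 kept direction and call, 187 kept direction but lost the call, 13 gained one and 0 changed direction. Upper-quartile scaling gave 2184 higher and 1104 lower genes, and averaging the close replicates gave 666 and 1013, with 52 higher by at least 2-fold. DESeq2 gave 40 higher and 23 lower by at least 2-fold, and no filter on low counts gave 85 lower by at least 2-fold. Leaving out single libraries gave 711 to 1307 higher and 1087 to 1915 lower genes, 72 to 124 and 33 to 49 of them by at least 2-fold, 20 to 24 raised genes that were lower and 15 to 19 lowered genes that were higher. Without a fold minimum these last counts were 425 and 332, and at an average log2 CPM of at least 2 they were 19 and 8, since each changes the size of the set. The cause of the other shifts was not tested. Of 1280 list counts, 169 moved by more than 1.5 times.

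Same-numbered 6 h and 12 h libraries had correlations of their deviations of 0.47, 0.25 and -0.074, so the numbers were not taken to pair the samples, and not every 6 h library correlated best with its own number. With the replicate block, 1363 genes were higher and 1894 lower, 99 and 48 by at least 2-fold, and 24 raised genes were lower and 20 lowered genes higher. Genes with few counts add to the 2-fold totals, which were 162 higher and 85 lower without a filter and 88 and 36 with a mean count of at least 10. Replicate 1 differs from replicates 2 and 3 at 6 h in mitochondrial share and length dependence (slope 0.0019 against 0.041 and 0.044 per doubling). At 12 h, replicate 2 differs from replicates 1 and 3 in length dependence (slope 0.046 against -0.0050 and -0.00055 per doubling).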

Other observations

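Outside the comparisons above, a few secreted or epithelial genes at low levels were lower at 12 h than at 6 h. They were picked after their values were seen. CHI3L2, a chitinase-like protein, averaged 4.40 ± 0.126 CPM at 6 h and 1.29 ± 0.210 CPM at 12 h (SD, n = 3 each), with an edgeR log2 fold change of -1.77 and an adjusted p of 5.1e-07. LCN2, a secreted iron-scavenging lipocalin, averaged 2.03 ± 0.328 CPM and 0.619 ± 0.285 CPM (-1.67, adjusted p = 0.0012), and the trefoil gene TFF2 was lower by 1.01. From 3 h to 6 h, a comparison that shares the 6 h libraries, LCN2 (-0.73, edgeR adjusted p = 0.029) and TFF2 (-0.79, 0.0010) had already fallen, while CHI3L2 was not called (-0.070, 0.71). In the opposite direction, the luminal keratin gene KRT19 stood at 317, 299 and 298 CPM at 6 h and at 424, 379 and 459 CPM at 12 h (0.47, edgeR adjusted p = 3.9e-04), and 3 of 9 tested luminal markers (CLDN4, EPCAM and KRT19) were called higher, beside 8.7% of all genes tested. The cyclin-dependent kinase inhibitor gene CDKN1C rose by 1.02 at low level, from 2.7 to 3.54 CPM to 5.17 to 7.88 CPM, while CDKN1A fell.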
